A study of Mus musculus with 10 samples.

Results

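The CATSPER genes encode the subunits of the calcium channel of the sperm flagellum, and 8 of them are described here, chosen by gene symbol from the 23420 gene rows of the series: Catsper1, Catsper2, Catsper3, Catsper4, Catsperb, Catsperd, Catsperg1 and Catsperg2. The rule used no measured value. PolyA RNA was sequenced from mouse spermatogenic cells at postnatal day 18, in 5 libraries labelled Ino80cKO and 5 labelled Ino80WT. In Ino80cKO mice the chromatin remodeller gene Ino80 was deleted in the testis with Stra8-Cre, a recombinase made in male germ cells, so somatic cells of the testis keep the gene. Ino80WT is the label of the comparison animals, whose Cre status the labels do not give. All mice were of mixed background, and the cells came from tubules digested with collagenase and trypsin and filtered, with no sort for a cell type. The comparison asks how levels of CATSPER transcripts in these unsorted cells differ between Ino80cKO and Ino80WT.

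CatSper opens when the sperm cytoplasm turns alkaline, and the calcium that enters drives hyperactivated swimming, which the sperm needs to reach and penetrate the egg. CATSPER1, CATSPER2, CATSPER3 and CATSPER4 line the pore, and male mice that lack any of them are infertile. The β, δ, γ and ε proteins (genes Catsperb, Catsperd, Catsperg1 or Catsperg2, and Catspere) have large extracellular parts that form a canopy over the pore, while CATSPERζ and the calcium sensor EFCAB9 sit on its cytoplasmic side. The assembled channel appears only in spermatids and sperm, but transcription of its genes can begin earlier, in spermatocytes.

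Between 16750609 and 23700094 counts fell on genes in each library, so 3 counts, used here as the floor of detection in 1 library, stood for 0.127 to 0.179 CPM (a gene's counts scaled per megaread of gene counts). The floor allows for counting error only: without molecular identifiers, PCR copies of a molecule count again. Levels are CPM after TMM scaling, and differences are log2 fold changes of Ino80cKO over Ino80WT tested with edgeR (quasi-likelihood) and called at a Benjamini-Hochberg adjusted p below 0.05 over the 15265 genes tested. Of these genes 45.9% were called, 27.6% lower and 18.3% higher in Ino80cKO, and with library totals in place of TMM 34.9% of the calls were lower, against 60.2% here. Whether libraries came from separate animals is not stated, so the p-values reflect library-to-library spread that may be partly technical. The gene count of Ino80 averaged 96.0 ± 1.37 CPM in Ino80cKO and 94.9 ± 12.6 CPM in Ino80WT (SD, n = 5 each, log2 fold change 0.02 ± 0.09 SE, adjusted p = 0.889). The labels do not give the deleted exons, and reads from any others would still count, so this value does not check the deletion.

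The members divided sharply by whether they were transcribed at day 18. The pore subunit Catsper2 and the canopy subunits Catsperb, Catsperd, Catsperg1 and Catsperg2 had between 324 and 2279 counts in every library. The other pore subunits, Catsper1 (chromosome 19, positions 5335615 to 5344281, GRCm38.p6 here and below), Catsper3 (chromosome 13, 55784500 to 55824048) and Catsper4 (chromosome 4, 134211965 to 134227431), were close to absent. Catsper1 had 0 of 102596964 gene counts in the Ino80cKO libraries together, which allows a level of up to 0.0292 CPM (3 counts over the group), and in Ino80WT it had 1 count in library 3 and 0 in the others. Catsper4 had 2 counts over the 5 Ino80cKO libraries and 6 over the 5 Ino80WT libraries, with no library above 4 counts. Catsper3 had 8 counts over Ino80cKO, at 1 or 2 in each library, and 4 counts over Ino80WT, of which 3 were in library 1. The exact Poisson interval (95%) was 3.45 to 15.8 counts for Catsper3 in Ino80cKO and 1.09 to 10.2 counts in Ino80WT, so the sums overlap within counting error. These 3 genes did not pass the filter on low counts, and no fold change is given for them, since nearly every library was at or under the floor. Tested without the filter they gave adjusted p = 0.375 for Catsper1, 0.531 for Catsper3 and 0.306 for Catsper4, in edgeR's quasi-likelihood test.

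Levels of different genes were compared per kilobase of exon, with lengths from GENCODE release M21 on the same build (GRCm38, also called mm10), because the sources used here do not name the annotation behind the counts. In Ino80WT the members that were transcribed followed the order Catsper2, Catsperd, Catsperb, Catsperg2, Catsperg1. Of the 50-base stretches of transcripts, 43.0% of Catsperg1 and 44.1% of Catsperg2 occur in the other copy, and reads not mapping uniquely were left out. The full exon length was used, so the levels of both genes may be too low and their places in the order are uncertain. Catsper2 stood at 6.14 ± 1.34 CPM per kb in Ino80cKO and 17.6 ± 6.47 CPM per kb in Ino80WT, and Catsperg1, the lowest of the 5, at 3.99 ± 0.901 and 10.04 ± 2.43 CPM per kb in Ino80cKO and in Ino80WT (SD, n = 5). No neighbours in that order differed by more than the larger of their SDs in Ino80WT, but these SDs hold shifts that genes of a library share. Library by library, Catsperd was above Catsperb and Catsperg2 above Catsperg1 in 5 of 5 Ino80WT libraries. Catsper2 was above Catsperd in 3 of 5 and Catsperb above Catsperg2 in 2 of 5. In Ino80cKO the order was Catsper2, Catsperd, Catsperg2, Catsperb, Catsperg1, and there too no neighbours differed by more than the larger SD. Catsperd was above Catsperg2 in 5 of 5 Ino80cKO libraries, and the other neighbours kept their order in 2 or 3 of 5. Among 14288 tested genes with a length, the level of Catsper2 lay at percentile 49.5 in Ino80cKO and percentile 74.7 in Ino80WT. Catsper3 averaged 0.0534 ± 0.0166 CPM per kb in Ino80cKO and 0.0351 ± 0.0600 CPM per kb in Ino80WT. Catsper4 and Catsper1 were lower still in both groups. The ranked genes had all passed the count filter, which these 3 had not, so their percentiles of 0.112 or below are no result. The gap between the transcribed and the near-absent members, at 3.99 CPM per kb for Catsperg1 against 0.0534 for Catsper3 in Ino80cKO alone, was larger than any difference between genotypes described here.

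**Figure D1:**
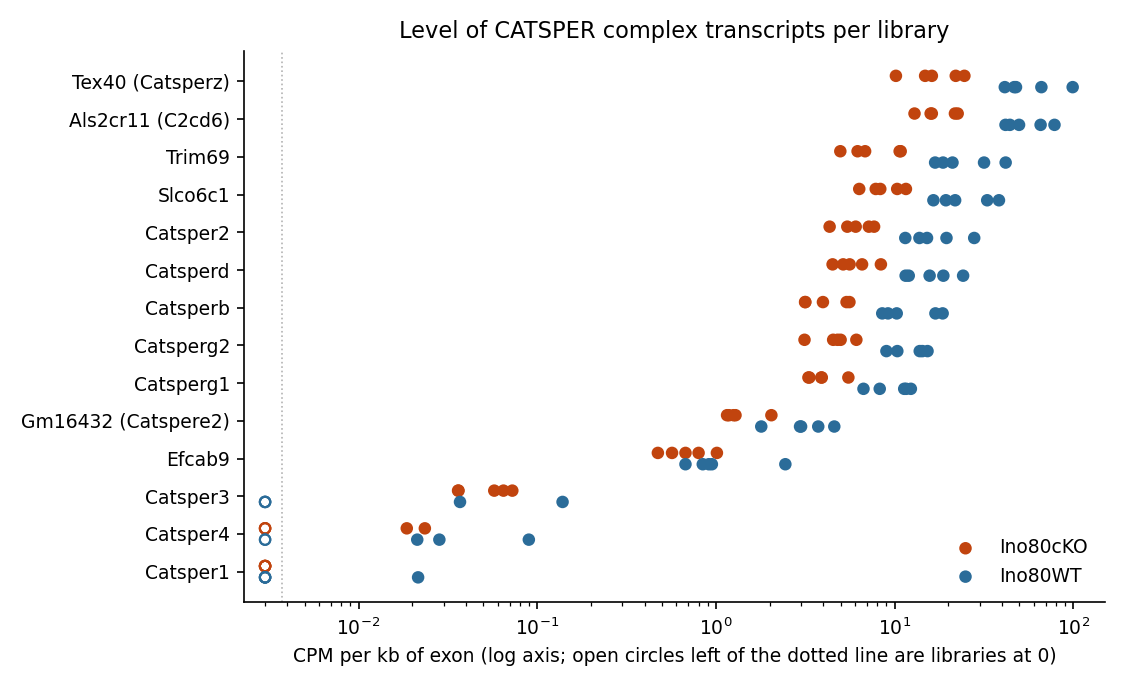
Level of each CATSPER gene and of 6 further genes of the channel complex in every library, in CPM per kilobase of exon on a log axis, with Ino80cKO above Ino80WT in each row. Open circles mark libraries at 0 counts. Catsper2 and the canopy members lie between 3.13 and 27.9 CPM per kb, while Catsper3, Catsper4 and Catsper1 stay at or below 0.139 CPM per kb.

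RefSeq promoter windows (GRCm38.p6, 250 bases before to 50 after an annotated start) were available for 6 of the 8 members, 4 transcribed and 2 near-absent, and 1 window of each is shown, to set their sequences beside the levels. Capitals mark matches on either strand to AACNGNC, a spelling of the site bound by MYB factors, among them the pachytene regulator MYBL1. Catsperd and Catsperg1 have 2 windows each, and the one nearest the annotated gene start is given.
Catsper2, chr2:121413743-121414042, minus strand: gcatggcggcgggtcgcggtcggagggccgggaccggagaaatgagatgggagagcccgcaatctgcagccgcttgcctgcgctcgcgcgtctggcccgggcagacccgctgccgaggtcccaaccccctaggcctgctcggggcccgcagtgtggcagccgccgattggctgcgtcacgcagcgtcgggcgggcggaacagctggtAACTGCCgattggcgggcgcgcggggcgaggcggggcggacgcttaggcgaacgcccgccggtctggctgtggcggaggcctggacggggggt
Catsperb, chr12:101404423-101404722, plus strand: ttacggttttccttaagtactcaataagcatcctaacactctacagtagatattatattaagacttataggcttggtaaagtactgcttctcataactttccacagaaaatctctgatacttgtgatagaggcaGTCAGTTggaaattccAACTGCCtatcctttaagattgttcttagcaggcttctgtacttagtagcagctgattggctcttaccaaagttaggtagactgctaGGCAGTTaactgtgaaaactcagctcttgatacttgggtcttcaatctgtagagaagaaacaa
Catsperd, chr17:56626797-56627096, plus strand: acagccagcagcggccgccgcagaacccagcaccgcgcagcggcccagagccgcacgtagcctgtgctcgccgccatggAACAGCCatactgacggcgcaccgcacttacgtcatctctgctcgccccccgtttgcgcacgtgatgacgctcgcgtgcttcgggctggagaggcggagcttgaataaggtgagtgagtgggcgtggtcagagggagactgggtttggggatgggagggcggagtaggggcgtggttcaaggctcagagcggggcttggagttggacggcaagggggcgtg
Catsperg1, chr7:29213984-29214283, minus strand: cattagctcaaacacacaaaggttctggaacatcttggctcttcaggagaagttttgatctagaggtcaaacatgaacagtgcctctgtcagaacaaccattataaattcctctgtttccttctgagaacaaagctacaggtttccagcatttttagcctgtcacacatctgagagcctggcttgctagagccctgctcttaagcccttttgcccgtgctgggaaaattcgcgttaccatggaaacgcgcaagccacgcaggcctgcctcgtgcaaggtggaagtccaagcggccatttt
Catsper3, chr13:55784329-55784628, plus strand: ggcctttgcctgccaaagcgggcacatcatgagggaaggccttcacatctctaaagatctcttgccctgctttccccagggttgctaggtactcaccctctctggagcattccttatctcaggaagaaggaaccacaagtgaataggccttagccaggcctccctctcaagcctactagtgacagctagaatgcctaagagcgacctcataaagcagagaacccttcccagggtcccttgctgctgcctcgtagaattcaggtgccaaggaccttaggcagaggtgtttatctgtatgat
Catsper4, chr4:134227334-134227633, minus strand: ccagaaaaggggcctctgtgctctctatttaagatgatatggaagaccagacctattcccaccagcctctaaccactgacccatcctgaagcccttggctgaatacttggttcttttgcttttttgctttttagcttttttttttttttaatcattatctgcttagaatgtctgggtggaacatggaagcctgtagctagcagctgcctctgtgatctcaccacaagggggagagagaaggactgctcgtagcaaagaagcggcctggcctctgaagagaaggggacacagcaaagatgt

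The Catsper2 window is CpG-rich, with 41 CpG and a GC content of 74.7%, and its CpG count lies at percentile 96.5 of all 32851 windows. Catsperd has 29 CpG (percentile 87.1) in the printed window and 12 CpG (percentile 60.4) in its other window. Catsperb has 1 CpG (percentile 5.43). Its level was 4.25 CPM per kb in Ino80cKO and 12.7 CPM per kb in Ino80WT, against 6.04 and 16.4 CPM per kb for Catsperd. The windows of Catsperg1 have 8 and 9 CpG (percentiles 51.4 and 54.2), near the middle of all windows, and no AACNGNC match. Catsper3 and Catsper4 have 3 and 2 CpG, against a median of 7 over all windows. The AACNGNC letters occur in windows of 3 of the 4 transcribed members with a window, 3 times in Catsperb, and in none of those of Catsper3 and Catsper4. Of the 6 further genes of the channel complex, all with a window, 2 had a match. The letters occur in 32.8% of all windows, so these matches are a description of the letters and not of binding. The full cAMP response element TGACGTCA (1.79% of all windows), to which CREM binds, and GTTGCC (12.5%), part of the RFX site, were in no window of a member, on either strand. CACGTG, an E-box (7.15%), was in the printed Catsperd window.

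All 5 members that passed the count filter fell in Ino80cKO, beside 27.6% of all tested genes that were lower, and in each of them every Ino80cKO library lay below every Ino80WT library, as it did for 22.0% of all tested genes. They passed the filter through their counts in both groups, at no less than 324 in any library. All 5 fell at least 2-fold, as 7.72% of all tested genes did, and groups that did not overlap in either direction made up 32.0% of all tested genes, including 9.96% with all Ino80cKO libraries above. The folds lay close together, from 2.52 to 2.99, with a median log2 fold change of -1.44, against 0.02 over all genes tested. In bulk RNA, fewer cells of a type and less RNA per cell cannot be told apart, and markers of pachytene spermatocytes, Sertoli cells and macrophages, given below the members, differed between the same libraries.

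Catsper2, the pore subunit (chromosome 2, positions 121391633 to 121414598), had 22.4, 20.1, 16.0, 28.4 and 26.5 CPM in Ino80cKO libraries 1 to 5, against 50.9, 56.1, 103, 42.4 and 72.1 CPM in Ino80WT libraries 1 to 5. Ino80WT 3 was highest by a wide margin and Ino80cKO 3 lowest, and the highest Ino80cKO library was below the lowest Ino80WT library. The means were 22.7 ± 4.97 CPM in Ino80cKO and 64.9 ± 23.9 CPM in Ino80WT (SD, n = 5 each), 2.86-fold lower in Ino80cKO (log2 fold change -1.52 ± 0.23 SE, adjusted p = 0.000333). At its edge the gene shares 18 exon bases with Pdia3, a disulfide isomerase gene on the other strand (chromosome 2). The sources used here do not say whether counting used strand. Pdia3 averaged 603 ± 14.4 CPM in Ino80cKO and 654 ± 35.5 CPM in Ino80WT and did not pass the test (log2 fold change -0.12 ± 0.07, adjusted p = 0.162).

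Catsperb, which encodes the β subunit of the canopy (chromosome 12, positions 101404645 to 101626009), had 17.5, 21.9, 17.4, 29.7 and 30.9 CPM in Ino80cKO libraries 1 to 5. In Ino80WT libraries 1 to 5 it had 47.1, 56.8, 103, 50.7 and 93.5 CPM. Ino80WT 3 and 5 were well above the rest of their group, and no Ino80cKO library reached the Ino80WT range. With means of 23.5 ± 6.49 CPM in Ino80cKO and 70.1 ± 25.9 CPM in Ino80WT (SD, n = 5 each), it showed the largest fall of the 5, 2.99-fold (log2 fold change -1.58 ± 0.25, adjusted p = 0.000441, edgeR). Of the 50-base stretches of its transcripts 9.27% also occur in Gm18795.

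Catsperd, the gene of the δ subunit, without which the channel is not stable in mouse sperm (chromosome 17, positions 56626911 to 56664456), had 20.1, 18.5, 16.1, 30.1 and 23.6 CPM in Ino80cKO libraries 1 to 5. Its Ino80WT libraries 1 to 5 had 41.4, 56.4, 86.8, 43.1 and 67.3 CPM. The order of the Ino80WT libraries was near that of Catsper2, with library 3 highest. Catsperd averaged 21.7 ± 5.42 CPM in Ino80cKO and 59.0 ± 18.8 CPM in Ino80WT, 2.72-fold lower in Ino80cKO (log2 fold change -1.44 ± 0.22, adjusted p = 0.000327, edgeR).

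Catsperg1 and Catsperg2, on chromosome 7 (positions 29181532 to 29215589 and 29697217 to 29727049), are close copies that encode the γ subunit. Of the 50-base stretches of their transcripts 43.0% of Catsperg1 and 44.1% of Catsperg2 occur in the other copy, so reads from these parts cannot be assigned to 1 copy and each level is uncertain. Catsperg1 had 27.4, 23.5, 23.2, 38.8 and 27.6 CPM in Ino80cKO libraries 1 to 5, against 47.2, 86.9, 81.7, 58.2 and 79.7 CPM in Ino80WT libraries 1 to 5. Catsperg2 had 33.7, 31.9, 22.0, 43.0 and 35.1 CPM in Ino80cKO libraries 1 to 5, against 63.3, 97.2, 107, 72.8 and 101 CPM in Ino80WT libraries 1 to 5. Ino80cKO 4 was the highest and Ino80cKO 3 the lowest of its group in both, and the groups did not overlap. Catsperg1 fell 2.52-fold (log2 fold change -1.33 ± 0.18, adjusted p = 0.000184) and Catsperg2 fell 2.67-fold (log2 fold change -1.41 ± 0.18, adjusted p = 0.000121), both by edgeR. The balance of the copies was not shown to differ. The log2 ratio of Catsperg1 over Catsperg2 was -0.23 ± 0.20 in Ino80cKO and -0.33 ± 0.10 in Ino80WT, a difference of 0.10 (exact two-sided permutation test over libraries, p = 0.397, n = 5 each, smallest possible p = 0.00794).

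**Figure D2:**
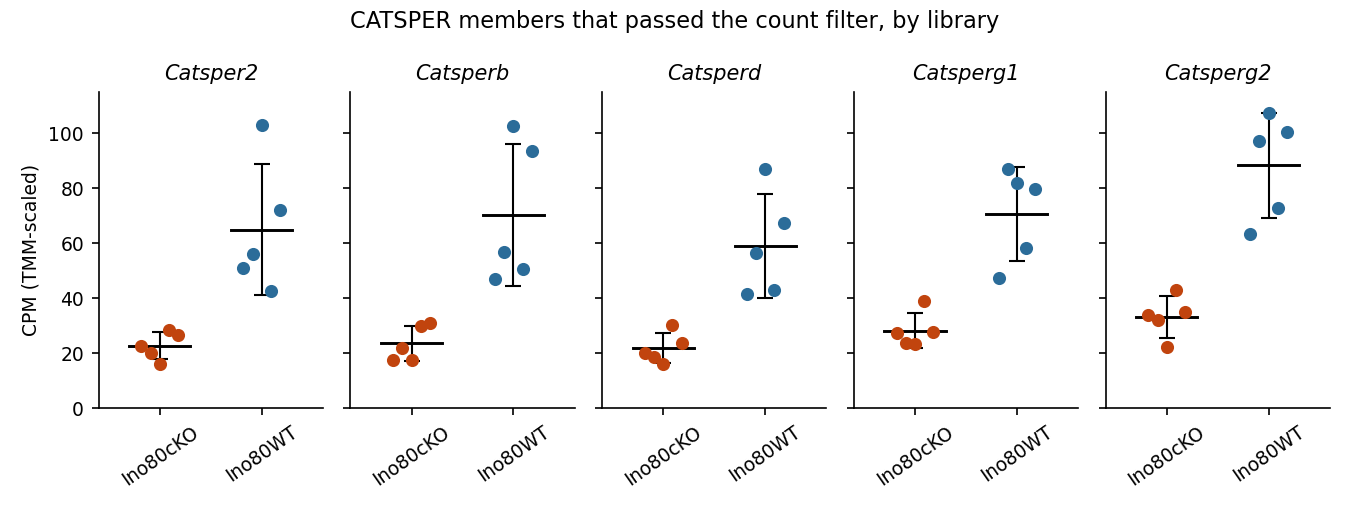
TMM-scaled CPM of the 5 CATSPER members that passed the count filter, 1 point per library, with the mean (long line) and SD (error bar) of 5 libraries per group. In all 5 panels the Ino80cKO points lie below the Ino80WT points, and the Ino80WT libraries spread more widely, to 107 CPM for Catsperg2.

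The same libraries set the extremes of nearly every member. Ino80cKO 3 was the lowest library of all 5 tested members, and Ino80WT 3 the highest of 4, with Ino80WT 2 the highest for Catsperg1. Without Ino80WT 3 and Ino80cKO 3, left out together after their values were seen, all 5 still fell, with log2 fold changes from -1.29 for Catsperb to -1.15 for Catsperd. Leaving out any single library kept all 5 calls, and the log2 fold change of Catsper2 ran from -1.64 to -1.29.

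Other genes of the channel complex were read from a list, of which 6 of 9 had a row and passed the filter. Catspere1, Tmem249 and Tmem262 were not analysed here. Of the 6, 5 fell and Efcab9 did not pass, with a median log2 fold change of -1.59, while 27.6% of all tested genes fell. Als2cr11, an older symbol of C2cd6, which encodes the τ subunit needed to carry the channel to the flagellum, averaged 39.4 ± 9.10 CPM in Ino80cKO and 123 ± 34.5 CPM in Ino80WT (SD, n = 5 each). It was 3.13-fold lower in Ino80cKO (log2 fold change -1.65 ± 0.20, adjusted p = 9.71e-05, edgeR), and the groups did not overlap.

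Tex40, the older symbol of Catsperz, a small cytoplasmic subunit, had 18.7, 20.4, 12.8, 31.0 and 27.8 CPM in Ino80cKO libraries 1 to 5, against 60.3, 58.9, 125, 52.2 and 83.7 CPM in Ino80WT libraries 1 to 5. Ino80WT 3 was again highest and Ino80cKO 3 lowest. Its fall of 3.44-fold was the largest of the complex (log2 fold change -1.78 ± 0.27, adjusted p = 0.000361, edgeR). Of the 1262 exon bases of Tex40, 587 are shared with the potassium channel gene Kcnk4 on the same strand. The row of Kcnk4 had at most 4 counts in any library. Reads from the shared bases may have been assigned to neither gene, so the level of Tex40 may be too low.

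Efcab9, whose product pairs with CATSPERζ and senses calcium, was hardly transcribed. It had 1.06, 0.705, 0.494, 0.835 and 0.593 CPM in Ino80cKO libraries 1 to 5, and 0.881, 0.705, 0.990, 2.55 and 0.953 CPM in Ino80WT libraries 1 to 5. Apart from Ino80WT 4, with 57 counts, the groups covered much the same range, and the log2 fold change was -0.73 ± 0.36 with adjusted p = 0.115 (edgeR). Efcab9 and Tex40, partners in the same part of the channel, thus stood at 0.706 ± 0.210 and 17.5 ± 5.77 CPM per kb in Ino80cKO and at 1.17 ± 0.724 and 60.3 ± 23.7 CPM per kb in Ino80WT.

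Slco6c1, an organic anion transporter family member found in the mouse channel complex, fell 2.91-fold to 25.2 ± 5.90 CPM in Ino80cKO, against 73.3 ± 26.7 CPM in Ino80WT. Trim69, a tripartite motif gene reported with the channel, fell 3.30-fold to 14.9 ± 5.06 CPM in Ino80cKO, against 49.1 ± 19.9 CPM in Ino80WT. Gm16432, the older symbol of Catspere2, a copy of the ε subunit gene, fell 2.32-fold to 7.29 ± 1.96 CPM in Ino80cKO, against 16.9 ± 5.46 CPM in Ino80WT, and its groups overlapped. Adjusted p-values of these 3 genes were 0.000361, 0.000564 and 0.00139 in edgeR's test. Part of the Catspere2 sequence is shared with other copies (15.5% of 50-base stretches), so its level is uncertain.

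The CATSPER members moved together with markers of pachytene spermatocytes, the cells of mid meiotic prophase. Of 24 pachytene markers tested 23 fell and none rose, with a median log2 fold change of -1.49, beside -1.44 for the 5 members. Over all tested genes 27.6% fell. Their summed level was 1943 to 3272 CPM in Ino80cKO libraries and 5247 to 9034 CPM in Ino80WT libraries. Meig1, needed to build the sperm flagellum, fell 2.99-fold, the centrin Cetn1 fell 3.16-fold, and the transcription factor Crem fell 2.24-fold. In Ino80cKO libraries 1 to 5 the mean log2 CPM of the 5 members minus that of the markers was -0.74, -0.87, -0.79, -0.65 and -0.89. In Ino80WT libraries 1 to 5 it was -0.96, -0.57, -0.66, -0.62 and -0.54, a range that overlaps that of Ino80cKO.

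When libraries were scaled so that the mean log2 CPM of the 24 pachytene markers was equal in all of them, none of the 5 tested CATSPER members passed the test. Catsper2 then had a log2 fold change of -0.16 (95% interval -0.53 to 0.20, adjusted p = 0.378, edgeR) and Catsperb -0.24 (-0.63 to 0.15, adjusted p = 0.225). Catsperd had -0.10 (-0.48 to 0.27), Catsperg1 -0.02 (-0.43 to 0.40) and Catsperg2 -0.11 (-0.48 to 0.27). These intervals allow a residual fall of up to 0.63 on the log2 scale, so the values do not show that members and markers changed equally. Of the other subunits only Tex40 was still called lower, with -0.45 (-0.84 to -0.06, adjusted p = 0.0273), while Gm16432 and Efcab9 had positive values of 0.11 and 0.49 that did not pass. This scaling moves the median log2 fold change of all genes to 1.33 and calls 13736 genes higher and 56 lower, so its values are relative to pachytene markers alone.

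**Figure D3:**
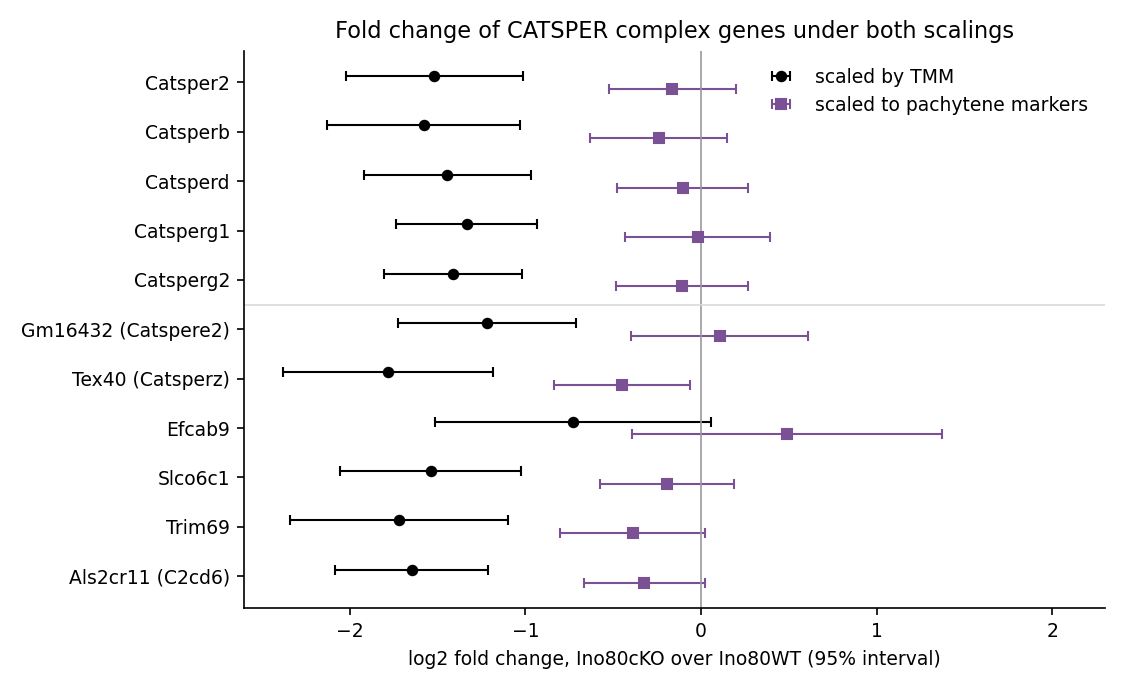
Log2 fold change of Ino80cKO over Ino80WT with its 95% interval for the 5 tested CATSPER members (above the line) and 6 other genes of the complex (below it), scaled by TMM (black circles) and to 24 pachytene markers (purple squares). Under TMM all members lie between -1.58 and -1.33, and under marker scaling their intervals include 0.

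**Figure D4:**
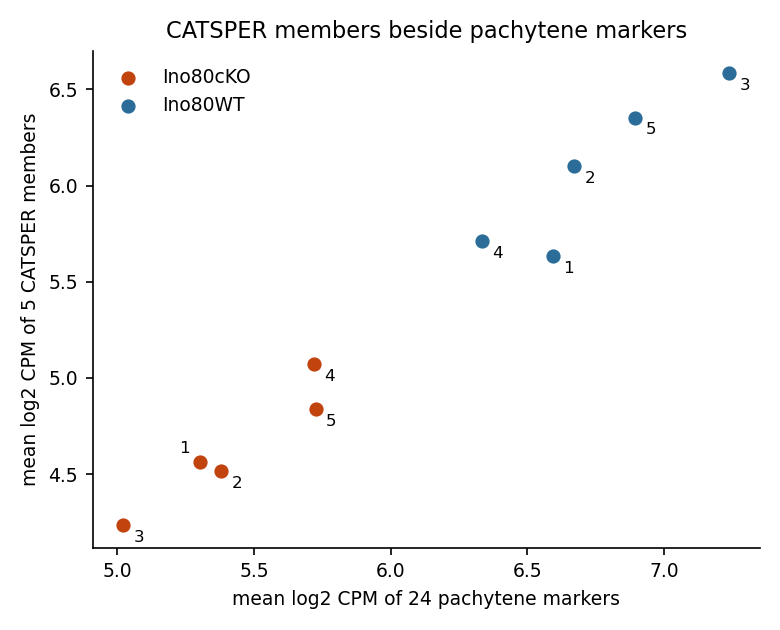
Mean log2 CPM of the 5 tested CATSPER members against that of 24 pachytene markers, 1 numbered point per library. Ino80cKO libraries lie at 4.23 to 5.07 on the member axis and Ino80WT libraries at 5.63 to 6.58, and Ino80cKO 3 and Ino80WT 3 are the extremes on both axes.

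Earlier meiotic markers had smaller values. Of 14 early prophase markers 8 fell and 1 rose (Stra8, named after its value was seen), with a median log2 fold change of -0.44. The break-forming enzyme Spo11 fell 2.20-fold, Sycp2 of the chromosome axis fell 1.67-fold and Hormad1 1.51-fold. Of 11 spermatogonial markers 1 fell (Sohlh2, 1.22-fold) and 2 rose, Uchl1 and Etv5, with a median of 0.13. These spermatogonial counts are at or below the shares over all tested genes, 27.6% lower and 18.3% higher. The rise of Stra8 was lost without any of 6 single libraries (Ino80WT 2, 3 or 5, Ino80cKO 1, 4 or 5), that of Uchl1 without Ino80WT 5 or Ino80cKO 1, and that of Etv5 without Ino80WT 1 or 5 or Ino80cKO 3 or 4.

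Markers of spermatids, the cells in which the channel is assembled, were mostly near 0 at this age. Of 17 spermatid markers 4 passed the filter, of which 2 fell and none rose, beside 27.6% of all tested genes that fell. The summed level of all 17 was 35.4 to 64.3 CPM in Ino80cKO and 89.0 to 238 CPM in Ino80WT. The protamine genes Prm1, Prm2 and Prm3, the transition protein gene Tnp2 and Txndc8 had 0 counts in all 10 libraries, and Tnp1 had at most 4 counts in any. Actl7b and Pgam2 fell 3.46-fold and 3.13-fold, and these made up most of that sum. Pgam2, at 33.3 ± 10.4 CPM in Ino80cKO and 104 ± 46.3 CPM in Ino80WT, is also transcribed in muscle. The near-absent Catsper1, Catsper3 and Catsper4, at no more than 4 counts in any library, thus stood near the protamine and transition protein genes in their counts. Other markers of the list stood higher, with Spaca1 at up to 7.49 CPM and Izumo1 averaging 0.954 CPM in Ino80cKO and 1.15 CPM in Ino80WT. Actl7b, averaging 8.36 CPM in Ino80cKO and 28.9 CPM in Ino80WT, and Pgam2 were transcribed, as the 5 other members were.

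Markers of somatic and immune cells either rose or did not pass, and of all tested genes 18.3% rose. Of 10 Sertoli cell markers 5 rose and none fell (summed level 4407 to 5771 CPM in Ino80cKO and 2968 to 4603 CPM in Ino80WT), with Gata4, Fshr and Sox9 rising 1.53-fold, 1.46-fold and 1.37-fold. The count of 5 was 3 without Ino80WT 5 or Ino80cKO 2, and 3 without Ino80WT 3 and Ino80cKO 3 together, while it was 8 with library totals and 8 without Ino80WT 1 and 2 together. Of 5 macrophage markers all rose, with a summed level of 42.1 to 69.3 CPM in Ino80cKO and 12.97 to 25.98 CPM in Ino80WT. Among 5 Leydig cell markers 3 rose, as did 3 of 5 peritubular markers, while none of 4 endothelial markers passed. The Leydig count was 1 without Ino80WT 3, and the peritubular count was 1 without Ino80cKO 1 and 5 with library totals. The blood marker Beta-s did not pass, and Hba-a1 and Hba-a2 were at 0 in every library. The summed levels were 48.1 to 108 CPM in Ino80cKO and 26.4 to 71.5 CPM in Ino80WT for Leydig markers, and 823 to 1173 CPM in Ino80cKO and 692 to 882 CPM in Ino80WT for peritubular markers. The part of these cells in the fall of CATSPER transcripts was not tested.

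Genes that act beside CatSper in sperm were called in part, beside 27.6% of all tested genes lower and 18.3% higher. In a list of sperm ion transport genes 8 of 13 passed the filter, of which 5 fell and none rose, with a median log2 fold change of -0.44. Slc9b1, a sodium and proton exchanger, fell 2.62-fold to 28.8 ± 5.70 CPM in Ino80cKO, against 75.4 ± 21.01 CPM in Ino80WT, without overlap. Slc9c1, the sperm-specific exchanger linked to cytoplasmic pH, fell 2.67-fold, Pkdrej 2.92-fold and Slc9a8 1.31-fold, and these groups overlapped. The count of 5 was 1 without Ino80WT 3 and Ino80cKO 3, when Slc9b1 still passed and Slc9c1, Pkdrej and Slc9a8 no longer did. It was 3 without Ino80cKO 3 alone, with library totals or with the replicate number as a block.

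In a list of capacitation signalling genes, which act as sperm gain the ability to fertilise, 9 of 15 passed the filter, 3 fell and 1 rose, with a median of -0.34. These counts are close to the shares over all tested genes, 27.6% lower and 18.3% higher, and are no result about the list. Ropn1l and Spa17, of the flagellar sheath, fell 3.11-fold and 2.52-fold, and the soluble adenylyl cyclase gene Adcy10 fell 2.28-fold. Cabyr, a calcium-binding protein of the sheath, rose 1.57-fold to 2.82 ± 0.558 CPM in Ino80cKO, against 1.78 ± 0.496 CPM in Ino80WT, a call lost without Ino80WT 4 or without Ino80WT 1 and 2 together.

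Cation channels related to CatSper by their pore served as a family outside the sperm complex. Of 12 that passed the filter, among voltage-gated calcium channels, the leak channel Nalcn and the endolysosomal channels Tpcn1 and Tpcn2, 1 fell and 2 rose, with a median log2 fold change of 0.01. Over all tested genes 27.6% were lower and 18.3% higher, and neither count exceeds its share. Cacna1i fell 2.55-fold to 1.73 ± 0.5004 CPM in Ino80cKO, against 4.40 ± 2.32 CPM in Ino80WT. Nalcn rose 1.34-fold and Cacna1d 1.30-fold, and both calls were lost without Ino80cKO 2 and without Ino80WT 3 and Ino80cKO 3 together. The call of Nalcn was also lost with the replicate number as a block (adjusted p = 0.0635, edgeR), and that of Cacna1d without Ino80WT 1, 3 or 5 or Ino80cKO 3. A second channel was called lower without Ino80WT 1, without Ino80cKO 3 or without Ino80WT 1 and 2 together, for a count of 2.

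The genes whose log2 CPM over the 10 libraries was most like the mean of the 5 members were Iqch, Lin7a, Ccdc158, Ak7, Nup210l and Speer1-ps1, with Pearson r from 0.996 to 0.998 among 12435 genes compared. The correlation is a description, since all genes share the libraries and their split by genotype. All 6 fell, between 2.35-fold (Ccdc158) and 3.30-fold (Lin7a), and none of their groups overlapped. The choice by likeness to the members, whose groups did not overlap, all but fixed this outcome, so it is no added result. Iqch, with a calmodulin-binding IQ motif, averaged 41.9 ± 8.31 CPM in Ino80cKO and 109 ± 30.0 CPM in Ino80WT (SD, n = 5 each). Ak7, an adenylate kinase of motile cilia and flagella, averaged 24.8 ± 4.76 CPM in Ino80cKO and 61.2 ± 12.3 CPM in Ino80WT.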

How the data were processed

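PolyA RNA of 10 libraries, 5 Ino80cKO and 5 Ino80WT, was made with a stranded kit, per the labels' protocols. The deposited files hold raw read counts per gene, and TopHat2, HTSeq, DESeq2 and the build mm10 appear in the submitters' processing notes, without versions or roles. Annotation and strand setting: not given in the sources used here. The 5 rows that name no gene held 35.5% to 44.0% of all counts and were left out of library sizes and tests. Among them, the row of reads that did not map uniquely held 18.4% to 26.3% of all counts. Such reads lower the counts of near-identical copies. The ribosomal RNA gene Rn45s took 7.08% of gene counts in Ino80WT 1 and 4.66% in Ino80WT 2, the highest shares. It took 1.60% to 3.76% in the other libraries. Without Ino80WT 1 and 2 together, all 5 tested CATSPER members were still called lower.

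Genes were filtered with filterByExpr (minimum count 10, minimum total 15), scaled by TMM and tested with edgeR 4.0.16 (robust quasi-likelihood, limma 3.58.1, R 4.3.3), with Benjamini-Hochberg adjustment and a threshold of 0.05. DESeq2 1.42.0, other scalings, filters and sets of libraries were alternatives. On data simulated for this comparison with 15176 genes, 92% of 100 genes changed by 1 on the log2 scale were called, 52.5% of 99 changed by 0.5, none with the wrong sign, and 4.64% of calls were unchanged genes. The simulation changed few genes, about as many up as down, while 45.9% of genes were called in the data. Its rates need not hold there. No libraries were duplicates, since chi-square divided by its degrees of freedom was at least 9.40 for every pair. Named genes were all members, the other subunits, up to 4 genes of each functional list and up to 3 of each marker list with the smallest adjusted p, Ino80, and the 6 genes most like the members' mean. The members and lists were chosen with earlier results of these data known, so lists are described by counts and medians, with no test of their own. Intervals are 95%, and intervals of counts and floors cover counting error only.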

Additional observations from a re-analysis of the deposited data

Results flagged for a closer look

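In a group of 5 libraries, a library was listed here when its gap to the nearest of the others exceeded 0.710 of the group's range (Dixon's 95% value). This held in 5 of 126 groups over 63 genes, and chance gives about 1 in 20. Catsperg1 was at 38.8 CPM in Ino80cKO 4, against 23.2 to 27.6 CPM in the other Ino80cKO libraries. Gm16432 (Catspere2) was at 10.8 CPM in Ino80cKO 4, against 6.07 to 6.77 CPM in the other Ino80cKO libraries. Efcab9 was at 2.55 CPM in Ino80WT 4, against 0.705 to 0.990 CPM in the other Ino80WT libraries. The Sertoli cell marker Sox9 was at 198 CPM in Ino80cKO 3, against 144 to 156 CPM in the other Ino80cKO libraries. The macrophage marker Csf1r was at 9.83 CPM in Ino80cKO 5, against 11.2 to 11.8 CPM in the other Ino80cKO libraries.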

How the results depend on the processing

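All 5 tested CATSPER members were called lower in 18 of 19 alternatives and 0 under scaling to pachytene markers, where Catsper2 had a log2 fold change of -0.16, Catsperb -0.24, Catsperd -0.10, Catsperg1 -0.018 and Catsperg2 -0.11, and 1 of the other subunits was lower (5 in the other 18). Outside that scaling the members' log2 fold changes ran from -1.64 to -1.16 for Catsper2, -1.76 to -1.29 for Catsperb, -1.59 to -1.15 for Catsperd, -1.48 to -1.15 for Catsperg1 and -1.52 to -1.20 for Catsperg2, with adjusted p of at most 0.00342 (edgeR or DESeq2). Leaving out 1 library gave -1.64 to -1.29, -1.70 to -1.40, -1.59 to -1.26, -1.48 to -1.25 and -1.52 to -1.28 for these members in the same order, 5936 to 7506 genes changed, 3610 to 4275 lower and 2135 to 3282 higher, and 0.02 to 0.15 for the difference in log2 Catsperg1 over Catsperg2. Scaling to pachytene markers called 13792 genes, 56 lower and 13736 higher, with 3 of the markers lower and 4 higher, and library totals called 5484 higher and 2938 lower, against 2793 higher and 4220 lower with TMM. Under pachytene scaling the sign turned for Gm16432 (0.11), Efcab9 (0.49), Slc9a8 (0.93), Spa17 (0.0050), Adcy10 (0.17), Cacna1i (0.030), Cacna1h (0.60), Crem (0.16), Spo11 (0.16), Hormad1 (0.72), Sycp2 (0.59), Sohlh2 (1.01), Izumo1 (1.03), Ccdc158 (0.10), Ak7 (0.017) and Pdia3 (1.20), by construction of a scaling that moves the median of all genes to 1.33. Pdia3 was at 0.059 with library totals, Ino80, without 1 library, at -0.031 to 0.074 (lowest without Ino80WT 1), and Beta-s at -0.12 without Ino80WT 3, -0.13 without Ino80WT 4, -0.13 without Ino80cKO 4 and -0.031 without Ino80WT 3 and Ino80cKO 3. With the replicate number as a block, 5493 genes changed (3572 lower, 1921 higher), and all 5 members were lower (Catsper2 -1.47, Catsperb -1.54, Catsperd -1.42, Catsperg1 -1.32, Catsperg2 -1.41). No pairing by number was seen: deviations of same-numbered libraries correlated at 0.196, 0.11, -0.47, -0.172 and -0.175, and 2 of 10 libraries correlated best with their own number. These values cannot show whether a number marks a shared litter or day, which the labels do not state. Depth limits Catsper1, Catsper3 and Catsper4, whose counts were too low for a fold change.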
